A study of Ursus arctos with 5 samples.

Results

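Collagens and the proteins that modify or trim them were followed in the gastrocnemius, a calf muscle, of grizzly bears during activity and hibernation. All transcripts whose gene name began with a collagen chain symbol (COL followed by the type and chain), or with P4HA, PLOD1 to PLOD3, LOX, SERPINH1, PCOLCE or ADAMTS, were taken. This gave 98 transcripts of 38 genes, out of 9093 annotated transcripts of 4873 genes and 26614 transcripts in all. Of these, 71 transcripts belonged to 25 collagen genes and 27 to 13 genes of enzymes and related proteins. The name alone chose them, and no measured value was used. A name rests on similarity to a human protein, and since collagen chains share long repeats, the chain to which a transcript is assigned is uncertain.

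The study sampled bears named Tia and Star, each in October while active and again in February while hibernating, and the deposited table has 1 column of single-end RNA-seq values per bear and state. The labels list 1 single-end sample per state for both bears together, so that the bears are told apart by the column names alone, and each column is called a library here. It asked how hibernating muscle is kept from wasting through months of fasting and rest. All 4 libraries came from captive animals biopsied under tiletamine, zolazepam and isoflurane, and hibernating bears were not fed. The dose of tiletamine and zolazepam per body weight was lower in hibernation. Dose, feeding and state therefore cannot be told apart. The labels give every sample an age of 10 years, whereas the study describes a subadult and an adult. With 2 bears, state was compared over 2 libraries against 2, and nothing tells biological from technical spread within a bear and state. Each value is given as RPKM, reads per 1000 bases of transcript scaled to the depth of the library, and sums over transcripts as RPM, reads scaled in the same way without division by length.

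Collagens are built of 3 chains wound into a triple helix. Fibrillar collagens such as types I, III and V form the rope-like fibrils of tendon and of the sheaths around muscle fibres. Network and basement membrane collagens line each fibre, beaded-filament collagen VI joins that lining to the fibrils, and FACIT collagens sit on fibril surfaces. In the cell, prolyl and lysyl hydroxylases modify the chains. Outside it, N- and C-proteinases cut off the propeptides, and lysyl oxidases crosslink the finished molecules. In muscle this matrix carries force, and most of it is made by fibroblasts rather than by the fibres. In bulk tissue, fewer cells of a type and less RNA per cell cannot be told apart.

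The libraries held between 44.7 M and 54.2 M aligned reads (M, mega), as recovered from the step size of the RPKM values. The 98 transcripts had from 29 to 45449 reads in a library. The table lists only transcripts at or above 1.0 RPKM in all 4 libraries, so a transcript lost in 1 state could not appear in it. COL4A1, COL4A2, COL6A3, COL12A1, LOX, SERPINH1, PCOLCE, all P4HA genes and the procollagen N-proteinases ADAMTS2, ADAMTS3 and ADAMTS14 had no named transcript in it and were not analysed here. Muscle, the labelled tissue, was represented by the fibre genes MYH1, MYH2, MYH7 and TTN, whose most-read transcripts summed to between 9467 and 13730 RPKM. The other fibre markers listed, ACTA1, CKM and NEB, were not found under their names.

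Across the whole set, collagen RNA differed between the states in one bear and hardly in the other. Collagens took 2634 RPM in active Tia and 1127 in hibernating Tia, which was 2.34-fold less. In Star they took 1116 RPM when active and 1301 when hibernating. Active Tia was thus the library that stood apart, and the other 3 lay between 1116 and 1301. Much of the surplus was COL1A1, the main chain of type I collagen. Without its transcripts isotig14133 and isotig14135, the collagens took 1458, 1061, 1074 and 1245 RPM in active Tia, hibernating Tia, active Star and hibernating Star. The enzymes and related proteins together stayed between 239.1 and 278.5 RPM in the 4 libraries.

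Of the genes listed as markers of other cell types, some were also highest in active Tia and some were not. Fat cell markers (4 of 9 listed were found, FASN, LPL, PLIN4 and SCD) summed to 493.3 RPKM in active Tia and to between 111.5 and 135.0 RPKM in the other libraries. FASN, LPL and SCD were highest in active Tia, whereas PLIN4 was highest in hibernating Star, at 105.0 RPKM against 71.2 in active Tia. ADIPOQ, PLIN1, FABP4, LEP and CIDEC, which define fat cells more closely, had no named transcript. Fibroblast markers (FBN1 and FN1, 2 of 7) summed to 29.8 RPKM in active Tia and to 9.68, 16.2 and 9.63 RPKM in hibernating Tia, active Star and hibernating Star. Tendon markers (ASPN and FMOD, 2 of 7) stood at 10.3 RPKM in active Tia and between 4.75 and 6.01 RPKM elsewhere, with ASPN highest in active Tia and FMOD in hibernating Star. None of the 5 cartilage markers was found. The endothelial marker PECAM1 ranged from 7.53 to 13.0 RPKM, highest in active Tia. The smooth muscle marker MYH11 went the other way, with 27.6 RPKM in hibernating Star and between 5.44 and 7.02 RPKM in the rest, and the leukocyte marker CD68 was at 6.41 and 7.12 RPKM in the hibernating libraries and at 3.94 and 3.28 RPKM in the active ones of Tia and Star. The part of these cells in the collagen values was not tested.

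**Figure D1:**
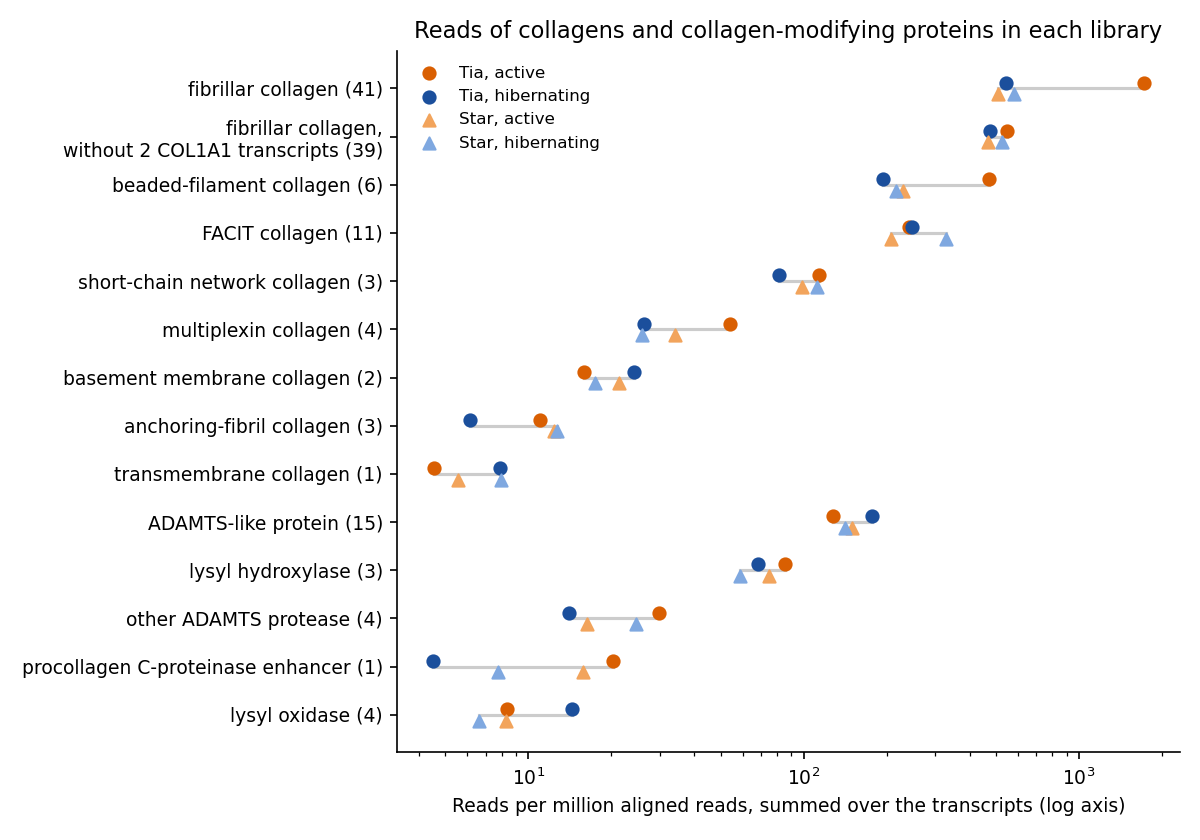
RPM (log axis) summed over the transcripts of each collagen class or enzyme group, with the number of transcripts in brackets. Circles are Tia, triangles Star, orange the active and blue the hibernating library; fibrillar collagens stood at 1723 in active Tia and between 508.6 and 582.1 in the other libraries, and at 546.4 in active Tia without 2 COL1A1 transcripts.

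No transcript of the set passed a test between the states. With limma on log2(RPKM + 0.5), 0 of the 98 transcripts had an adjusted p under 0.05, as had 0% of all annotated transcripts, and the adjusted p-values of the set ran from 0.541 to 0.996. At an unadjusted p under 0.05, limma gave 13 transcripts higher in hibernation (7.19% of all annotated transcripts were) and 5 lower (1.89%). An exact permutation test of 2 libraries against 2 cannot go below 0.333. Everything that follows is therefore a description of sizes and directions.

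3 descriptive counts were made beside the test. The first follows the study's choice of NOISeq: a score gives the share of all bear-to-bear differences in the same state that are smaller than the change from active to hibernating, in ratio and in difference alike, with 0.8 as threshold. By this score 7 transcripts were higher in hibernation, against 2.10% of all annotated transcripts, and 12 were lower, against 1.51%. In 23 transcripts both hibernating values lay above both active ones (34.6% of all annotated transcripts), and in 12 they lay below (8.80%). At least 2-fold in both bears, 3 transcripts were higher (0.627%) and 1 was lower (0.418%). Relative to these backgrounds the higher counts were larger by score, by 2-fold change and by unadjusted p and smaller by overlap, while the lower counts were larger in all 4. These differences from the background were not tested.

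These splits moved with the scaling of the libraries. RPKM left the median of all annotated transcripts 0.12 (Tia) and 0.15 (Star) higher in hibernation on the log2 scale. Median-ratio scaling lowered each change by 0.13 in Tia and 0.20 in Star. It then gave 14 transcripts higher and 22 lower without overlap in the set, and 19.3% and 18.1% of all annotated transcripts. The score calls of the set became 4 higher and 13 lower, against 1.19% and 2.34% of all annotated transcripts. The changes below are given as deposited, and those within about this shift have no settled direction.

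The score calls in the 2 directions were unlike in how they held across bears. All 12 lower calls had their highest value in active Tia and were at least 2-fold lower in hibernating Tia, while 7 were also lower in Star and 5 were higher there. Of the 7 higher calls, 7 were higher in both bears and 6 did not overlap between the states. As deposited, 47.8% of all annotated transcripts were higher in both bears and 17.2% lower in both. Without overlap, 34.6% were higher and 8.80% lower. The highest value lay in active Tia for 20.4% of all annotated transcripts. Since the score compares the means of the states, a lower call tends to have its highest value in an active library. The same shares among the calls of all annotated transcripts were not worked out, so the contrast has no matched background. Median-ratio scaling gave 4 higher and 13 lower calls, so the contrast depends in part on the scaling. Without the active library of Tia, and with the hibernating pair alone as noise, the score gave 4 higher calls (COL11A1, COL5A2, COL9A3 and LOXL2) and 2 lower ones (PCOLCE2 and COL18A1 isotig23739). Of the 12 lower calls PCOLCE2 alone was thus left, since COL18A1 isotig23739 had scored 0.736 with all 4 libraries. Without active Tia, both hibernating libraries stood against active Star alone, so differences in level between the bears entered the score. Of all annotated transcripts, 2.0% were then higher and 0.89% lower, or 182 and 81 in place of 191 and 137, so that lower calls became fewer outside the set as well.

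**Figure D2:**
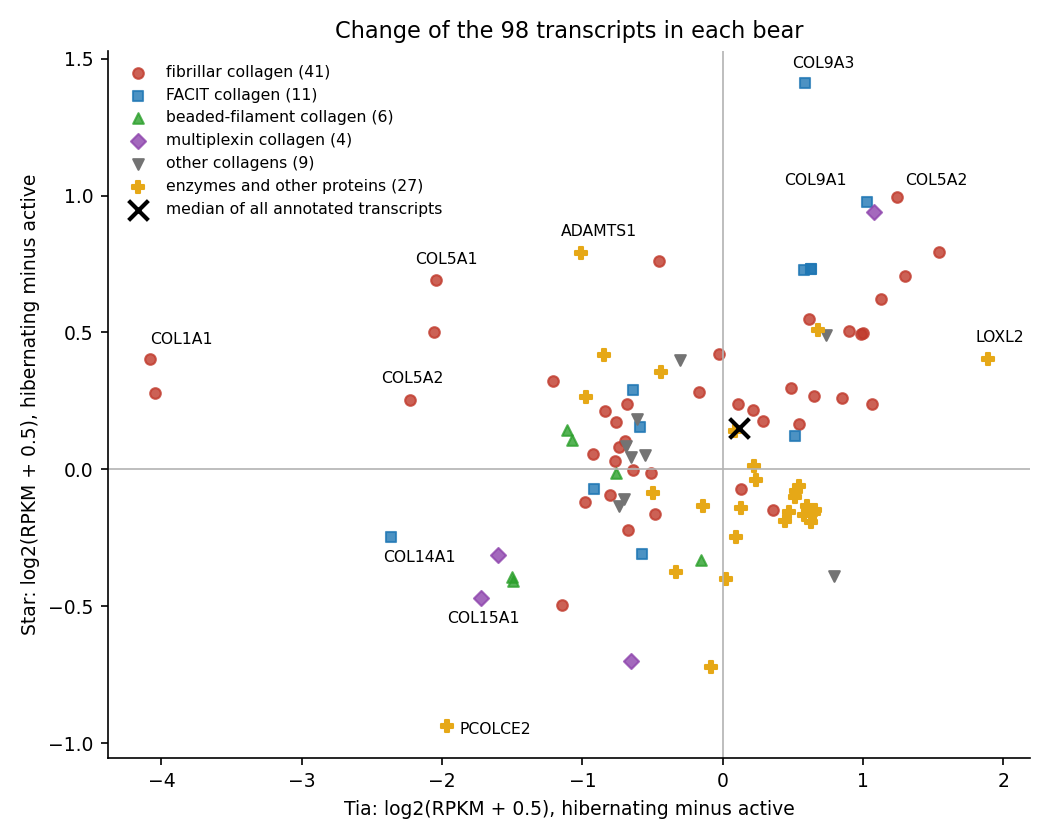
Change of each of the 98 transcripts on the log2(RPKM + 0.5) scale, hibernating minus active, in Tia (x axis) and in Star (y axis), by class. The cross marks the median of all annotated transcripts (0.12 in Tia, 0.15 in Star), and the points at the far left, down to -4.08 in Tia and at 0.40 in Star, are COL1A1.

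Fibrillar collagens made up the largest class, with 41 transcripts of 10 genes. Their median change was -0.46 in Tia and 0.24 in Star on the log2 scale, with 16 transcripts higher in both bears, 7 lower in both and 18 opposite. Of all annotated transcripts, 47.8% were higher in both, 17.2% lower in both and 35.0% opposite. The mean over the bears had a median of 0.03, which median-ratio scaling turned to -0.12. By the score, 3 were higher and 6 lower, or 7.3% and 14.6% of the class. Of all annotated transcripts, 2.10% were higher and 1.51% lower by score. The lower calls included COL1A1 transcripts that divide reads, so they are not all separate measurements.

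Type I collagen, the main fibre of tendon and bone, was read through 9 transcripts of COL1A1 and 2 of COL1A2. The most-read, COL1A1 isotig14133 (4481 bases), had 193 RPKM in active Tia, 11.0 in hibernating Tia, 6.79 in active Star and 9.15 in hibernating Star. COL1A1 isotig14135 (2835 bases) had 109.7, 6.17, 4.13 and 5.11 RPKM in the same order. In each of these, active Tia was over 10-fold above every other library and the states overlapped. The limma log2 changes were -1.84 (SE 1.40, adjusted p = 0.693) and -1.88 (SE 1.36, adjusted p = 0.684). These 2 transcripts have reads divided between them, so they are not separate measurements.

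The other 7 COL1A1 transcripts did not share that surplus. COL1A1 isotig20732 (5092 bases) had 22.5, 11.2, 17.2 and 15.8 RPKM in active Tia, hibernating Tia, active Star and hibernating Star. COL1A1 isotig20707 (5270 bases) had 6.22, 3.52, 7.71 and 8.17 RPKM. The short COL1A1 isotig43664 (440 bases) went the other way, with 18.8 and 35.5 RPKM in Tia and 19.9 and 28.5 in Star, without overlap. Over all 9, the mean log2 change ran from -1.88 to 0.70. For COL1A2, the partner chain of COL1A1 in the same molecule, contig04590 had 2.59 and 3.995 RPKM in active and hibernating Tia and 3.15 and 3.59 in Star. Its second transcript, isotig30823, had 2.47, 1.62, 3.74 and 3.29 RPKM. These 2 COL1A2 transcripts thus showed no value in active Tia that resembled the COL1A1 surplus. Both are under 1000 bases. In active Tia they had 126 and 107 reads, against 45449 for COL1A1 isotig14133. Whether they stand for the COL1A2 RNA as a whole is not known.

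Type III collagen, which forms fine fibrils in muscle sheaths, is a homotrimer of COL3A1. Its most-read transcript isotig35092 (618 bases) was the most abundant of the set, with 116 and 254 RPKM in active and hibernating Tia and 136 and 209.8 RPKM in active and hibernating Star. The states did not overlap, and limma gave a log2 change of 0.88 (SE 0.25, adjusted p = 0.541). The other 7 COL3A1 transcripts were far rarer, and their changes over the bears ran from -0.45 to 0.58. Of these, isotig08494 (2170 bases) had 13.1 and 8.03 RPKM in Tia and 17.6 and 15.05 in Star, lower in both bears. In isotig20276 (1596 bases) Tia went from 5.11 to 1.93 RPKM and Star from 3.90 to 4.998. The COL3A1 direction therefore depended on the transcript read.

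Type V collagen, which starts fibrils and limits their width, was read through COL5A1, COL5A2 and COL5A3. COL5A1 followed the COL1A1 pattern: isotig23244 (1998 bases) had 20.8 RPKM in active Tia and 4.66, 3.57 and 6.07 in hibernating Tia, active Star and hibernating Star. COL5A1 isotig44614 (413 bases) had 17.7, 3.87, 2.98 and 4.43 RPKM in the same order. Active Tia alone was high in both, and both were higher in hibernation in Star. The limma log2 changes were -0.68 (SE 0.74, adjusted p = 0.761) and -0.78 (SE 0.73, adjusted p = 0.731).

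COL5A2 had 7 transcripts and score calls in both directions, the only gene of the set with that. Its most-read transcript isotig21096 (3707 bases) had 25.1 and 11.1 RPKM in active and hibernating Tia and 17.3 and 12.1 RPKM in Star, lower in both bears without overlap. COL5A2 isotig18305 (950 bases) had 10.3, 1.81, 1.96 and 2.43 RPKM, with active Tia alone high. COL5A2 isotig29817 (894 bases) had 9.88 and 24.015 RPKM in Tia and 5.03 and 10.5 in Star, at least 2-fold higher in both. The limma log2 change of isotig29817 was 1.12 (SE 0.47, adjusted p = 0.565) and that of isotig21096 was -0.82 (SE 0.25, adjusted p = 0.541). All 3 transcripts carry the same gene name, and the deposited table does not say which part of the gene each covers.

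COL5A3 was less abundant. Its most-read transcript isotig23148 (2036 bases) had 8.99, 4.82, 3.57 and 4.23 RPKM in active Tia, hibernating Tia, active Star and hibernating Star, with active Tia high. COL5A3 isotig03849 (582 bases) had 1.48 and 5.26 RPKM in Tia and 1.38 and 2.76 in Star, at least 2-fold higher in both bears. Its score of 0.7997 fell just short of the threshold, and COL1A1 isotig43664 and COL22A1 isotig08575 followed at 0.784 and 0.776. Just inside it were COL9A3 isotig43760 at 0.816, COL18A1 isotig13378 at 0.820 and COL11A1 isotig13152 at 0.821. COL5A3 isotig03849 rested on few reads, 45 in active Tia.

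**Figure D3:**
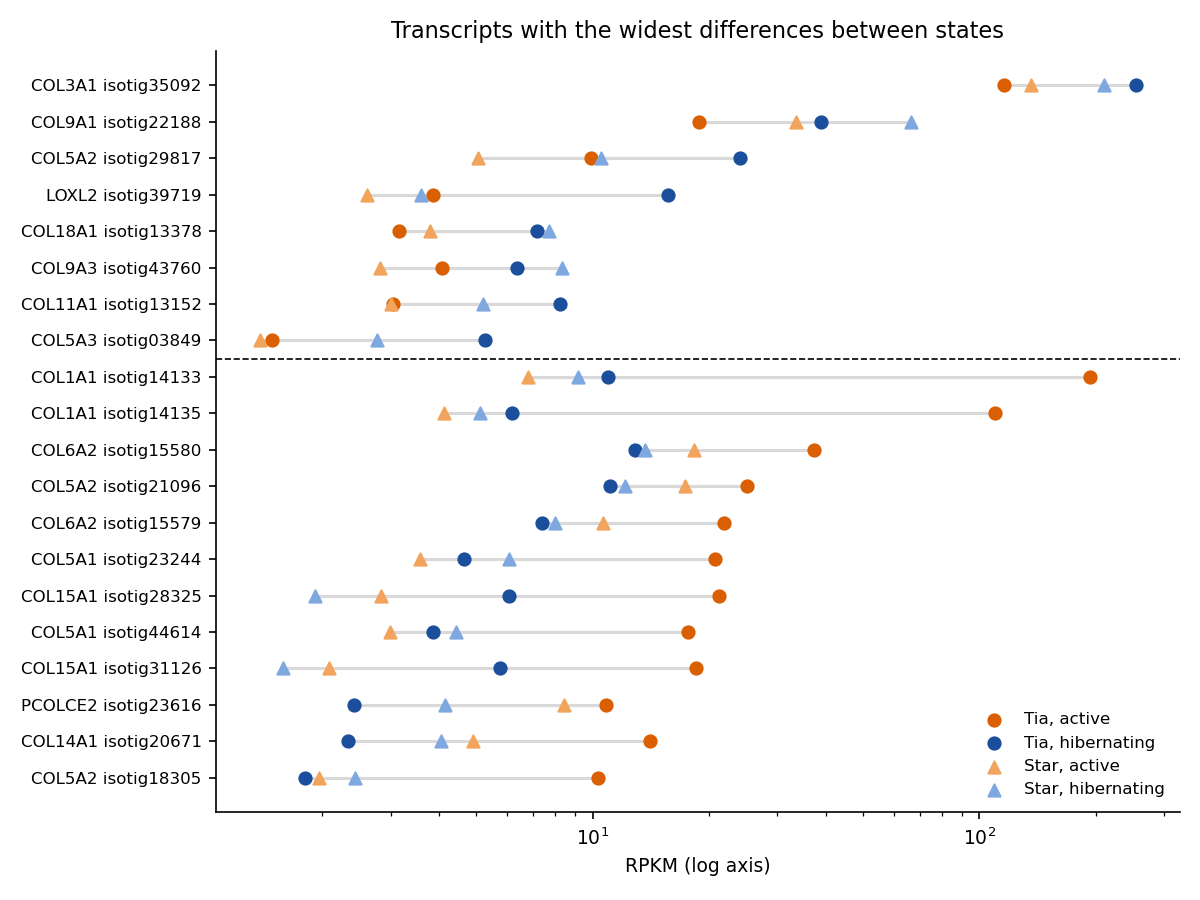
RPKM (log axis) in the 4 libraries of the 19 transcripts at a score of 0.8 or more and of COL5A3 isotig03849, which was at least 2-fold higher in both bears. Transcripts above the dashed line were higher and those below it lower in hibernation on the mean log2 scale; below the line, active Tia is the highest of the 4 in every transcript.

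The remaining fibrillar chains, of types II, XI and XXVII, are best known from cartilage. COL11A1, which builds thin fibrils, had isotig13152 (1334 bases) at 3.05 and 8.23 RPKM in active and hibernating Tia and at 3.00 and 5.21 in Star. It did not overlap between the states (log2 change 1.00, SE 0.28, limma adjusted p = 0.541). COL11A2, its partner chain, was nearly level, with 3.51 and 3.83 RPKM in Tia and 3.57 and 4.31 in Star. COL2A1, the cartilage collagen, had 5 transcripts, the most-read isotig20306 at 5.77 and 12.0 RPKM in Tia and 10.8 and 15.5 in Star. Of the 5, 3 were higher in both bears, 1 was lower in both and 1 was opposite. COL27A1 had 9.01 and 10.5 RPKM in Tia and 14.0 and 16.3 in Star, a difference smaller than that between the bears. Since no cartilage marker gene was listed, these names rest on similarity to a human protein alone.

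FACIT collagens, which decorate fibrils, had 11 transcripts of 5 genes, with median changes of 0.52 in Tia and 0.29 in Star. In 6 both bears were higher, in 3 both were lower and in 2 they were opposite. The share higher in both, 54.5%, was near the 47.8% of all annotated transcripts, of which 17.2% were lower in both. The higher ones include COL22A1 isotig08574 and isotig08575, which share reads. The direction of the median held under both scalings, at 0.18 under median-ratio and 0.19 under upper-quartile scaling, as a mean over bears. The class included 2 genes with clear level differences in opposite directions, COL9A1 and COL14A1.

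COL9A1, a chain of the type IX collagen that binds type II fibrils, had isotig22188 (2503 bases) at 18.9 and 39.0 RPKM in active and hibernating Tia and at 33.6 and 66.6 RPKM in active and hibernating Star. The ratio was close to 2 in each bear, with 95% counting intervals of 1.97 to 2.17 in Tia and 1.91 to 2.06 in Star. The bears differed in level by nearly as much, and the log2 change was 1.00 (SE 0.38, limma adjusted p = 0.549). The second COL9A1 transcript, isotig34604, was lower in both bears, at 1.97 and 1.16 RPKM in Tia and 2.98 and 2.32 in Star. COL9A3, another chain of type IX, had all 3 transcripts higher in both bears. Its most-read transcript isotig43760 (438 bases) had 4.08 and 6.38 RPKM in Tia and 2.81 and 8.31 in Star (log2 change 1.00, SE 0.27, limma adjusted p = 0.541). Each of the type IX chains read here thus had 1 transcript with a score call, and both calls were higher. COL9A3 isotig43760 rested on 55 to 197 reads in a library. Since no cartilage marker gene was found, the type IX names too rest on similarity to a human protein alone. The third chain, COL9A2, was not analysed here.

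COL14A1, found on type I fibrils in tendon and muscle sheaths, had 1 transcript of 5764 bases. It stood at 14.0 RPKM in active Tia, 2.33 in hibernating Tia, 4.90 in active Star and 4.05 in hibernating Star. The states did not overlap, yet the size was very unequal, 6.03-fold in Tia and 1.21-fold in Star. COL22A1, which sits at the junction of muscle and tendon, had isotig08574 (973 bases) at 36.0 and 55.9 RPKM in Tia and 30.7 and 51.4 in Star. Its neighbour isotig08575, which shares reads with it, had a like pattern, whereas isotig07611 (897 bases) had 37.4, 19.5, 26.9 and 25.6 RPKM in active Tia, hibernating Tia, active Star and hibernating Star. COL16A1 had 3.27 and 1.91 RPKM in Tia and 3.91 and 4.89 in Star, opposite in the bears.

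Basement membrane collagen was represented by 2 transcripts only. COL4A4 (isotig08412) had 4.23 and 7.70 RPKM in active and hibernating Tia and 6.29 and 4.69 in Star. COL4A5 (isotig29284) had 4.31 and 2.65 RPKM in Tia and 3.95 and 4.56 in Star. Each was opposite in the bears, and neither gene is the main chain of the muscle basement membrane. The data thus hold no direction for this class.

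The beaded-filament collagen VI, which surrounds each muscle fibre and whose loss causes muscle disease, had 6 transcripts of COL6A1, COL6A2 and COL6A6. None was higher in both bears and 4 were lower in both, against 17.2% of all annotated transcripts lower in both. Under both scalings all 6 were lower in both, against 33.3% and 31.0% of all annotated transcripts. Hibernating Tia was the lowest library in all 6, against 23.6% of all annotated transcripts. COL6A1 isotig15469 and isotig15470 have consecutive numbers and divided reads, as have COL6A2 isotig15579 and isotig15580, so the 6 are not separate measurements. The class medians were -1.09 in Tia and -0.17 in Star, and its mean over bears remained below 0 under both scalings, at -0.65 and -0.63. COL6A2 isotig15580 (3223 bases) had 37.2 RPKM in active Tia, 12.9 in hibernating Tia, 18.3 in active Star and 13.7 in hibernating Star. COL6A2 isotig15579 (3722 bases), with shared reads, had 21.8, 7.39, 10.6 and 7.98 RPKM in the same order. Neither overlapped between the states, and the limma log2 changes were -0.95 (SE 0.36, adjusted p = 0.549) for both. COL6A1 isotig15469 (4067 bases) had 36.8, 16.7, 17.2 and 19.0 RPKM, so its states overlapped and Star was slightly higher in hibernation as deposited and lower under both scalings. These chains of the same molecule thus shared the Tia difference. COL6A6 was low throughout, at 2.31 and 2.02 RPKM in Tia and 2.90 and 2.20 in Star.

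Multiplexin collagens, which link basement membranes to fibrils and release the fragments endostatin and its type XV counterpart, had 4 transcripts of 2 genes. COL15A1 isotig28325 (1026 bases) had 21.2 and 6.07 RPKM in active and hibernating Tia and 2.84 and 1.91 in Star, and COL15A1 isotig31126 (807 bases) had 18.5, 5.77, 2.08 and 1.58 RPKM in the same order. The direction was shared, but hibernating Tia remained above both Star libraries, and the difference between bears exceeded that between states. Without active Tia, the log2 changes of these transcripts were 0.25 and 0.48 in place of -1.10 and -0.96. Both hibernating libraries then stood against active Star alone, so the difference in level between the bears entered these values. COL18A1 pointed both ways. Its isotig13378 (926 bases) had 3.15 and 7.19 RPKM in Tia and 3.78 and 7.72 in Star, at least 2-fold higher in both bears (log2 change 1.01, SE 0.22, limma adjusted p = 0.541). Its most-read isotig23739 (1842 bases) had 7.71 and 4.73 RPKM in Tia and 14.1 and 8.49 in Star, lower in both. Both COL18A1 transcripts have divided reads.

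The other collagens varied less. COL8A2, a short-chain network collagen of vessel walls and the cornea, had isotig29755 (898 bases) at 86.8 and 59.0 RPKM in Tia and 72.7 and 75.5 in Star, the second most abundant transcript of the set by mean RPKM. COL7A1, which forms the anchoring fibrils of skin, had isotig21619 (2944 bases) at 2.77, 1.57, 3.28 and 3.40 RPKM in active Tia, hibernating Tia, active Star and hibernating Star. Hibernating Tia was lowest in all 3 transcripts of each of these genes, as it was for 23.6% of all annotated transcripts. COL25A1, a transmembrane collagen that motor nerves need to reach muscle, had 4.78 and 8.31 RPKM in Tia and 5.84 and 8.41 in Star, higher in both without overlap (log2 change 0.61, SE 0.22, limma adjusted p = 0.549).

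Of the enzymes that modify chains inside the cell, 3 lysyl hydroxylases were read, which prepare lysines for sugar attachment and crosslinking. PLOD1 had 10.9 and 8.54 RPKM in active and hibernating Tia and 9.78 and 7.44 in Star, lower in both bears without overlap (log2 change -0.35, SE 0.21, limma adjusted p = 0.639). PLOD3 had 5.70 and 5.12 RPKM in Tia and 4.66 and 4.20 in Star. PLOD2, the form that sets crosslinks in the telopeptides, had 2.87 and 1.98 RPKM in Tia and 1.24 and 1.73 in Star, opposite in the bears. Active Tia was the highest library for all 3, as it was for 20.4% of all annotated transcripts.

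PCOLCE2, which speeds the removal of the C-propeptide, was the only transcript of the set at least 2-fold lower in both bears. It had 10.8 RPKM in active Tia, 2.41 in hibernating Tia, 8.41 in active Star and 4.16 in hibernating Star. It was 4.50-fold lower in Tia and 2.02-fold lower in Star, the states did not overlap, and the counting intervals lay below no change in both bears. The limma log2 change was -1.45 (SE 0.31, adjusted p = 0.541). Of the 12 lower score calls, PCOLCE2 alone was also a call without the active library of Tia. Its reads were whole numbers in all libraries, from 226 to 1066.

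Crosslinking enzymes were represented by LOXL1 and LOXL2. LOXL2 (isotig39719, 508 bases), which also acts on basement membrane collagen, had 3.86 RPKM in active Tia and 15.6 in hibernating Tia, against 2.60 and 3.60 in Star. It was higher in both bears but by 4.05-fold in Tia and 1.38-fold in Star, and hibernating Star lay below active Tia (log2 change 1.15, SE 0.63, limma adjusted p = 0.617). The 3 LOXL1 transcripts were low and nearly level in Tia. The most-read, LOXL1 isotig17784, had 2.37 and 2.56 RPKM in Tia and 2.53 and 2.05 in Star.

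No procollagen N-proteinase was read, so the ADAMTS genes here have other substrates. ADAMTS1, a protease of cartilage and vessel proteoglycans, had isotig21415 (3192 bases) at 3.66 and 1.57 RPKM in Tia and 2.42 and 4.55 in Star, so that the bears went opposite ways. ADAMTS16 had 14.9, 7.35, 5.31 and 6.48 RPKM in active Tia, hibernating Tia, active Star and hibernating Star, with active Tia high. ADAMTS7 had 1.69, 1.05, 2.45 and 2.28 RPKM. Of the 4 transcripts of these proteases, 3 were opposite in the bears.

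ADAMTS-like proteins have the ADAMTS scaffold without the protease and bind the matrix, some of them next to fibrillin. Their 15 transcripts had medians of 0.52 in Tia and -0.14 in Star, with 12 opposite in the bears. Of these, 11 were transcripts of ADAMTSL5, all higher in Tia and lower in Star under each scaling. The most-read, isotig05842 (2451 bases), had 3.44 and 5.49 RPKM in Tia and 4.59 and 4.13 in Star. Since they bear consecutive numbers and divide their reads, they amount to about 1 measurement. ADAMTSL1 had 2.51 and 2.70 RPKM in Tia and 3.80 and 4.24 in Star, ADAMTSL3 had 2.90 and 4.94 in Tia and 2.91 and 4.35 in Star, and ADAMTSL4 isotig04521 had 3.40 and 4.04 in Tia and 3.57 and 3.60 in Star.

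Many genes had transcripts that pointed opposite ways. Of the 21 genes with several transcripts, 12 (57.1%) had mean changes of both signs, compared with 22.1% of the 1908 such genes among all annotated ones. The 7 genes with 4 or more transcripts held 48 of the 98 transcripts, so the set contains more genes with many transcripts, and the 2 shares are not matched for that. Counting 1 transcript per gene, the one with the most reads, left 5 higher and 7 lower score calls, against 2.5% and 1.5% of all annotated genes counted in this way.

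**Figure D4:**
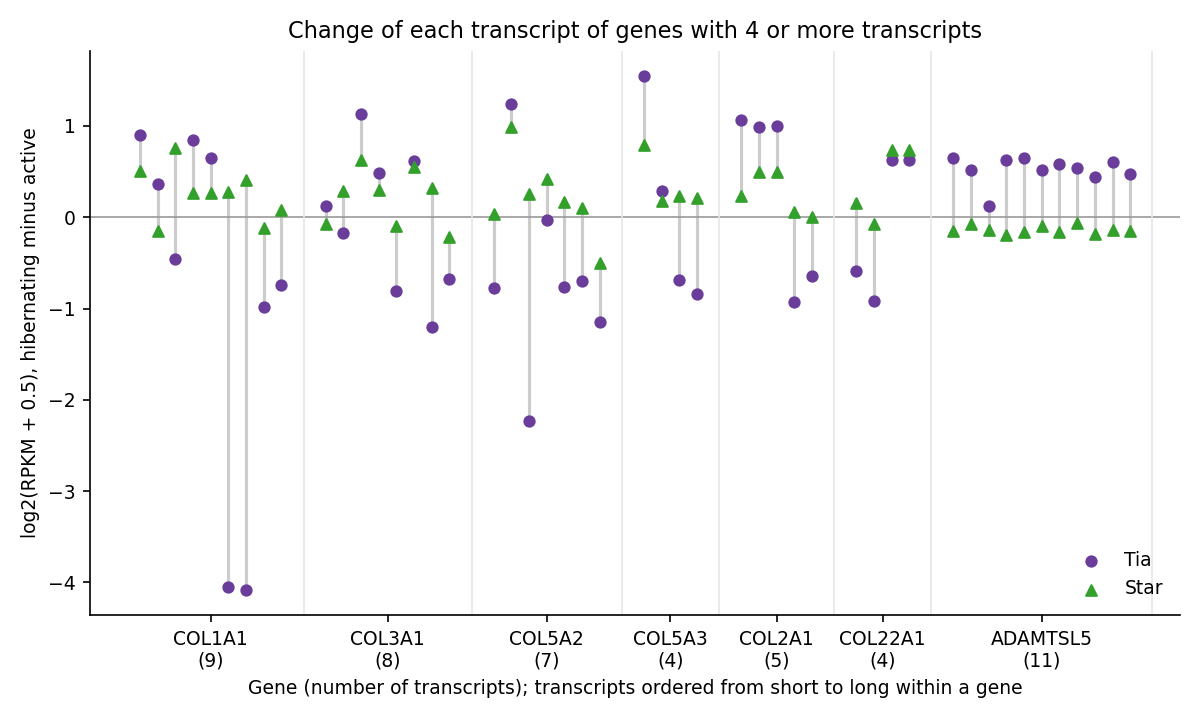
Change on the log2(RPKM + 0.5) scale, hibernating minus active, in Tia (circles) and Star (triangles) for every transcript of the 7 genes with 4 or more, ordered from short to long within a gene. COL1A1 spans -4.08 to 0.90 in Tia, COL5A2 spans -2.23 to 1.24, and all 11 ADAMTSL5 transcripts are above 0 in Tia and below 0 in Star.

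Long and short collagen transcripts differed in Tia. Of the 38 collagen transcripts under 1000 bases, 17 were higher in both bears and 9 lower in both, beside 39.5% and 20.2% of annotated transcripts of that length. Their medians were -0.02 in Tia and 0.18 in Star. Of the 19 with 2000 bases or more, 3 were higher in both and 6 lower in both, beside 51.3% and 15.8% of annotated ones. Of the 11 lower score calls for collagens, 6 were among these 19 and 3 among those under 1000 bases. Lower by score were 1.8% of annotated transcripts of 2000 bases or more and 1.1% of those under 1000. The medians of the long ones were -0.84 in Tia and 0.10 in Star, against 0.15 and 0.14 for the 4204 annotated transcripts of that length. Hibernating Tia was the lowest of the 4 libraries for 12 of the 19 long collagen transcripts and for 33 of all 71, compared with 23.6% of all annotated transcripts. The long transcripts include COL1A1, COL6A1 and COL6A2, several of which share reads, so they are not independent measurements.

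Genes that work with collagens differed in several directions, and none of them had a limma adjusted p under 0.05. Of 19 listed genes of collagen folding and secretion, 6 were found with 11 transcripts, of which 10 were higher in both bears, 4 with median-ratio and 7 with upper-quartile scaling, and none had a score call. The shares of all annotated transcripts higher in both bears were 47.8%, 29.3% and 31.2% in the same order. P4HB, the protein disulfide isomerase that also serves as a subunit of prolyl 4-hydroxylase, had its most-read transcript at 38.3 and 69.7 RPKM in Tia and 52.0 and 57.2 in Star. PPIB, a prolyl isomerase of the endoplasmic reticulum, had 53.7 and 65.1 RPKM in Tia and 36.2 and 55.0 in Star. The medians of the group were 0.27 in Tia and 0.18 in Star, beside 0.12 and 0.15 for all annotated transcripts.

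Matrix proteins that bind collagen were mostly highest in active Tia. Of 23 listed genes, 11 were found with 28 transcripts, of which 2 were higher in both bears, 13 were lower in both and 13 were opposite. Lower in both were 21 with median-ratio and 20 with upper-quartile scaling. Of all annotated transcripts, 47.8% were higher in both and 17.2% lower in both as deposited. Lower in both were 33.3% of them with median-ratio and 31.0% with upper-quartile scaling. Active Tia was the highest library in 24 of the 28, against 20.4% of all annotated transcripts. Of the 28, 11 were FN1 and 7 TNXB transcripts, mostly with neighbouring numbers and like values, so they are not separate measurements. SPARC, which binds fibrillar collagen on its way into the matrix, had 404.3 RPKM in active Tia and 79.5, 46.7 and 70.2 in hibernating Tia, active Star and hibernating Star. FBN1, the microfibril protein fibrillin, had 24.9 and 7.58 RPKM in Tia and 14.1 and 7.27 in Star, lower in both without overlap. TNXB isotig13286 had 43.6 and 19.6 RPKM in Tia and 37.1 and 27.1 in Star. These 3 transcripts were the score calls of the list, all lower (1.51% of all annotated transcripts were lower by score).

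The remaining lists were small. Of genes of TGF-beta and its signal, 8 of 14 were found with 13 transcripts, 9 of them higher in both bears under each scaling. Of all annotated transcripts, 47.8% were as deposited, 29.3% with median-ratio and 31.2% with upper-quartile scaling. As deposited, the 9 were transcripts of LTBP3, LTBP4, SMAD7, TGFB3 and TGFBR2, some of them of the same gene. SMAD4 was lower in both bears, and TGFB1, SMAD2 and LTBP3 isotig30857 were opposite. Of 19 genes of collagen breakdown, 4 were found with 1 transcript each. MMP2, a gelatinase, had 30.9 and 23.996 RPKM in Tia and 19.2 and 59.8 in Star. MMP14, its activator, had 6.61 and 6.70 RPKM in Tia and 3.58 and 10.5 in Star. MMP19, another matrix protease, had 3.09 and 1.41 RPKM in Tia and 1.45 and 1.36 in Star, and TIMP4, an inhibitor of these proteases, had 10.7 and 5.54 in Tia and 11.3 and 18.9 in Star. Of 9 genes of collagen receptors, DDR1 (1 transcript, higher in both bears) and DDR2 (3 transcripts, lower in both) were found. Of 7 genes of proline supply, 4 had 7 transcripts, 3 of them higher in both bears and 2 lower in both, and FURIN, 1 of 6 genes of propeptide processing, had its most-read transcript at 5.26 and 6.37 RPKM in Tia and 6.30 and 6.32 in Star. None of the transcripts in these small lists had a score call.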

How the data were processed

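Poly(A) RNA of gastrocnemius biopsies was sequenced. The authors assembled pyrosequencing and paired-end reads de novo with Newbler and SOAPdenovo, named transcripts by BLAST against human proteins and aligned single-end reads with SOAP2. The deposited values are RPKM with transcript lengths, 1 column per bear and state, and the column names identify the bears. How reads matching several transcripts were divided is not given in the sources used here. Values recovered as whole reads (within 0.1) made up 76.7% to 78.9%, so no count test was run.

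Here RPKM was compared with limma 3.58.1 (R 4.3.3, trend) on log2(RPKM + 0.5), 2 hibernating against 2 active libraries, Benjamini-Hochberg adjusted over 9093 annotated transcripts. The score used 53228 differences between bears as noise. Since each animal gave a library in both states, the bear pairs them, and across annotated transcripts the bears' differences in the 2 states had r = 0.36. Intervals of a ratio are exact Clopper-Pearson at 95%, from reads, and cover counting error only, since PCR reads carry no molecular identifiers. Scripts (Python 3.11.15) were tested on simulated data.

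Named are the most-read transcript of each gene, every transcript of the set at a score of 0.8 or 2-fold in both bears, and, of genes in the pathway lists, those at a score of 0.8; others were chosen after their values were seen. The members and lists were chosen with earlier results of these data known. Alternatives covered pseudocount, scaling, filters, thresholds, the bear as a block and left-out libraries. The pooled and paired-end samples were not used, nor was sequence, since no bear transcript sequences came with the values.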

Additional observations from a re-analysis of the deposited data

Results flagged for a closer look

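In 17 transcripts of the set the counting intervals of the ratio lay on opposite sides of no change in the 2 bears, and 10 of these reached 2-fold in 1 bear. They are given as the log2 change of Star minus that of Tia. The difference was not tested, since each bear has 1 library per state. It was 4.48 for COL1A1 isotig14133 and 4.33 for isotig14135, 2.73 for COL5A1 isotig23244 and 2.56 for isotig44614, and 1.53 for COL3A1 isotig20276. It was 1.26 for COL6A1 isotig15469 and 1.18 for isotig15470. Among the proteases it was 1.80 for ADAMTS1 isotig21415, 1.27 for ADAMTS1 isotig34108 and 1.24 for ADAMTS16 isotig08513. All 10 were lower in hibernation in Tia and higher in Star, except that under both scalings the COL6A1 transcripts were lower in Star too.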

How the results depend on the processing

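With limma, 0 transcripts passed under any setting, including a replicate block for the bear (0), and the adjusted p of the 20 transcripts with a score call or a 2-fold change lay between 0.34 and 0.955. Main counts were 7 higher and 12 lower by score, 23 and 12 without overlap, and 3 and 1 at 2-fold. Median-ratio and upper-quartile scaling each gave 4 higher by score (1.19% and 1.23% of annotated transcripts, against 2.10% as deposited). At 2-fold each left 0 higher and 1 lower. Without overlap, 14 and 15 were higher (19.3% and 21.0% of annotated transcripts) and 22 and 22 lower (18.1% and 16.7%). Both scalings moved the basement membrane median, from -0.01 to -0.16 and -0.14. A mean RPKM of at least 5 left 3 higher and 4 lower by score and 12 higher without overlap (38.4% of annotated transcripts at that level). The medians were then -0.33 (whole set), 0.68 (FACIT) and 0.20 (basement membrane). A score of 0.9 gave 1 and 6, and a 1.5-fold threshold gave 11 and 2. For these thresholds, and for the score at the RPKM minimum, the share of annotated transcripts was not worked out, so the counts have no background. With 1 transcript per gene, 7 were lower by score (1.5% of annotated genes counted in this way). Without overlap, 11 were higher and 6 lower (35.8% and 8.1% of those genes). At 2-fold 0 were higher and 1 was lower, and the FACIT median was 0.68. Without the active library of Tia, chosen after seeing the data, 4 and 2 passed the score and 37 and 23 did not overlap (52.6% and 18.9% of annotated transcripts). Leaving out libraries, the median of the whole set lay between -0.16 and 0.11 and that of FACIT between 0.16 and 0.52. Without Tia, COL1A1 isotig14133 (0.40) and isotig14135 (0.28), COL5A1 isotig23244 (0.69) and isotig44614 (0.50) and COL5A2 isotig18305 (0.25) reversed, and leaving out Star gave -4.08, -4.05, -2.04, -2.05 and -2.23 for these 5. Without the active library of Tia the same 5 changed sign (0.53, 0.40, 0.52, 0.41 and 0.08), as did COL15A1 isotig28325 (0.25) and isotig31126 (0.48). That setting puts both hibernating libraries against active Star alone, so differences in level between the bears enter it. Within each bear COL15A1 was lower in hibernation, at -1.72 in Tia and -0.47 in Star for isotig28325 and at -1.60 and -0.31 for isotig31126. The multiplexin median moved from -0.82 to 0.37 under that setting. None of the 20 reversed with other pseudocounts or scalings. A pseudocount cannot turn the change within a bear. The bear as a block and the RPKM minimum leave a log2 change itself unaltered, so they could not reverse it. The RPKM minimum also dropped COL11A1 isotig13152, COL5A2 isotig18305 and COL5A3 isotig03849. With 1 library per bear and state, no value has a replicate within a bear.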
